A study of Mus musculus with 12 samples.

Results

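Peptide hormones and neuropeptides are made as long precursors that are cut, trimmed and packed into dense-core vesicles. The 10 genes described here encode that machinery: the convertases Pcsk1 and Pcsk2, the carboxypeptidase Cpe, the amidating enzyme Pam, the chaperone Scg5, the convertase inhibitor precursor Pcsk1n, and the granins Scg2, Scg3, Chga and Chgb. They were taken by symbol, for their role in this pathway, from 55809 genes in each count table, and all 10 had a row in both.

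Counts of sequenced reads per gene were available for 12 libraries of sorted mouse cells in 4 groups of 3. TOM positive and TOM negative cells came from the hypothalamus of untreated Mc4r-Cre; Ai14 mice aged 4 weeks. In these mice Cre made in cells that have used the Mc4r gene, which encodes the melanocortin 4 receptor, switches on the red reporter tdTomato (TOM). The reporter therefore marks any cell in which Cre was ever active. AAV-Cre and AAV-GFP cells were taken from Otp fl/fl; Ai14 mice aged 26 weeks, 12 weeks after an adeno-associated virus had been injected, and the dissected region was the PVH, the paraventricular nucleus. Both of these groups carried the floxed Otp alleles and the Ai14 reporter, and Otp encodes a homeodomain protein needed by neuroendocrine neurons. The AAV-Cre cells were sorted as TOM positive but the AAV-GFP cells as GFP positive, so the virus, the colour used for sorting and the loss of Otp cannot be told apart. The study looked for regulators of Mc4r and for the molecular basis of excessive weight gain. Nothing in the labels ties a library to its own animal, so p-values here reflect the spread among libraries, which may be technical.

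Convertases cut precursors at pairs of basic residues, the carboxypeptidase trims the exposed residues, and the amidating enzyme finishes the carboxyl end of many peptides. Granins are acidic proteins that help to form the dense core of the vesicle and are themselves cut into peptides. Neurons and endocrine cells use this pathway most, while Cpe is also made by glia, so that its mRNA alone does not mark a peptidergic neuron.

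Library totals ran from 13506018 to 27827853 counts, and CPM values below are counts scaled to library size with TMM factors, which set the bulk of genes near no change. The checks of the labels were thin: Mc4r counts were 63, 0 and 0 in TOM positive cells and 0 in all TOM negative libraries. Otp had 36, 27 and 1 counts in TOM positive and 0 in all TOM negative libraries. In the AAV libraries Mc4r had 0 counts in each with AAV-Cre, and 22, 11 and 13 with AAV-GFP. Counts of Otp, the deleted gene, were 12, 9 and 10 with AAV-Cre, against 91, 102 and 38 with AAV-GFP. Some libraries held 0 counts for single genes that were well covered in the rest of the group: AAV-Cre replicate 1 held 0 counts for 199 genes that had at least 100 counts in both other libraries of its group, TOM positive replicate 2 for 139, and all 3 AAV-GFP libraries for 0. The 20 pan-neuronal markers summed to between 1590 and 1830 CPM in TOM positive libraries and between 850 and 972 CPM in TOM negative ones. The 12 oligodendrocyte markers summed to between 83261 and 94543 CPM in TOM positive libraries and all 12 passed as higher there, while all 13 microglia markers passed as lower. In the PVH libraries the vasopressin precursor Avp had 2320, 3062 and 3600 counts with AAV-Cre and 5750, 6451 and 3033 with AAV-GFP. In bulk samples, fewer cells of a type and less RNA per cell cannot be told apart.

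The 5' flanks of these genes are shown because Scg2, Chgb and Pcsk1 share an 8-base sequence there that few windows hold. RefSeq windows were found for 9 of the 10 members on GRCm38.p6, and Cpe was not among them. The 100 bases before the annotated start follow for Scg2 at chr1:79440027-79440126 (minus strand), Chgb at chr2:132781542-132781641 (plus), Pcsk1 at chr13:75089757-75089856 (plus), Chga at chr12:102554841-102554940 (plus) and, as a member without the sequence, Pcsk1n at chrX:7919722-7919821 (plus). Each is written 5' to 3' on the gene's strand, and capitals mark TGACG or its reverse complement, with TGACGTCA being the full cAMP response element.
Scg2: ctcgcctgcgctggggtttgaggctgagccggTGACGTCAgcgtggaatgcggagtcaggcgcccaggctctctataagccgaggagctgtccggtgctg
Chgb: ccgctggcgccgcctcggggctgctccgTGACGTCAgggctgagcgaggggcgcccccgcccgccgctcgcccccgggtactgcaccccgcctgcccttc
Pcsk1: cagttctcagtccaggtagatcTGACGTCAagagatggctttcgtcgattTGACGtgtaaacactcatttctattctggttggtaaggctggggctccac
Chga: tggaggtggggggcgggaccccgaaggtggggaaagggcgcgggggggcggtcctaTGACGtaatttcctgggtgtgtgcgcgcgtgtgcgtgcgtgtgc
Pcsk1n: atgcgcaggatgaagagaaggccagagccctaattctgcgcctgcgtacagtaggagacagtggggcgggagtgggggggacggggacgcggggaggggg
The full element TGACGTCA, which reads the same on both strands, began at position -68 in Scg2, -72 in Chgb and -78 in Pcsk1, counted from the base before the start as -1. Of 32851 windows of 250 bases before a start, 1.55% held it, against 3 of the 9 members. The shorter TGACG, searched on both strands and contained in the full element, stood in 7 of the 9 members, among them Chga at position -44, and in 17.8% of all windows. Neither TAATTA, the core bound by many homeodomain factors, nor TATAAA occurred in any of the 10 windows of these 9 members. They stood in 4.84% and 12.4% of all windows, and at such shares absence from 10 windows says little. A match describes letters only and shows no binding.

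Levels were compared between genes as CPM per kilobase of exon. In the mean of each group Cpe stood first, Pcsk2, Pam and Pcsk1 stood last in that order, and the granins and chaperones lay between. Single libraries departed from this order. In TOM negative replicates 2 and 3 Scg2, at 0.35 and 0.18, lay below Pam, at 0.43 and 0.24. Chgb, at 0.18 in TOM negative replicate 2, also lay below Pam. In AAV-GFP replicate 2 Pcsk1, at 1.49, lay above Pam, at 1.35. In TOM positive cells Cpe averaged 1516 ± 103 CPM per kilobase (SD, n = 3), Pcsk1n 79.1 ± 7.37 and Scg3 67.7 ± 15.6. The ranges of Pcsk1n and Scg3 overlapped there, as they did in TOM negative cells, where Scg3 came before Pcsk1n. Pcsk2 averaged 1.49 ± 0.36 CPM per kilobase in TOM positive and 3.77 ± 0.93 in AAV-GFP cells. Per length, Cpe exceeded Pcsk2 by a factor of 1078 ± 366 in TOM positive, 930 ± 277 in TOM negative, 972 ± 357 in AAV-Cre and 1165 ± 336 in AAV-GFP libraries. That ratio overlapped between all 4 groups.

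**Figure D1:**
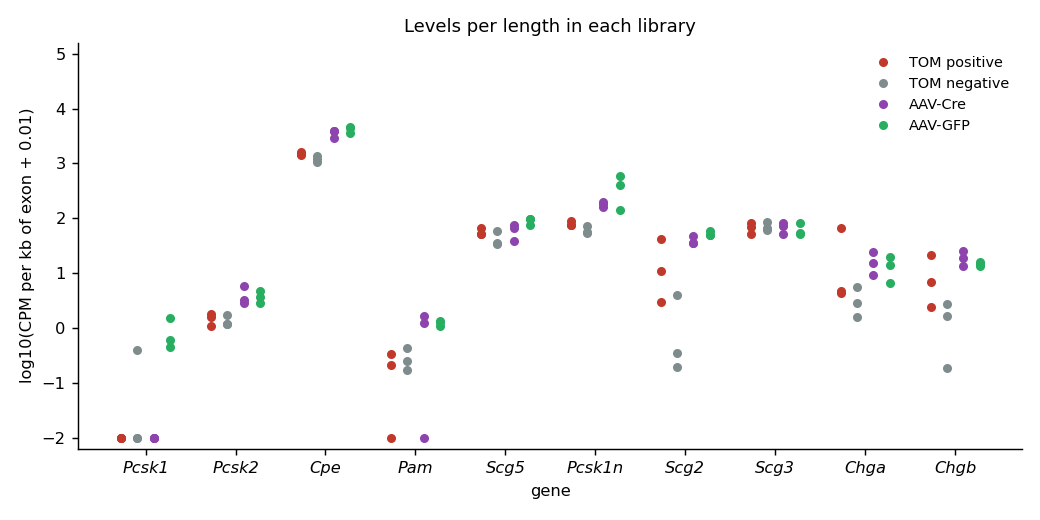
Each point is 1 library; the vertical axis is log10 of CPM per kilobase of exon plus 0.01, and colours mark the 4 groups of 3 libraries. Cpe lies above all other members in every library, and points at -2 are libraries with 0 counts, which occur for Pcsk1 and Pam.

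Because each table was scaled separately, levels set across the TOM and AAV libraries below are given side by side without a test. Group means of the plotted levels per length were higher in PVH than in hypothalamic cells for Cpe, Pcsk1n, Scg2, Pcsk2, Pam, Scg5 and Chgb. Those of Pcsk1 and Chga did not split this way, and Scg3 stayed between 171 and 195 CPM in all 4 group means. Single PVH and hypothalamic libraries overlapped for Scg2, Scg5, Chgb and Pam. Scg2, for example, stood at 42.5 CPM per kilobase in TOM positive replicate 1 and 35.2 in AAV-Cre replicate 1.

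Pcsk1 (chromosome 13, 75237945 to 75282980, plus strand, in the vM30 annotation that the deposited counts carry) encodes the convertase that makes the first cuts in precursors such as pro-opiomelanocortin. It had 48, 115 and 48 counts in the 3 AAV-GFP libraries and 0 counts in each of the 3 AAV-Cre libraries. The AAV groups did not overlap, and AAV-GFP replicate 2 was the highest. Against the 3 counts over the group that 0 allows, Pcsk1 was at least 67.3-fold lower after AAV-Cre, and at least 43.2-fold lower with any 1 library left out. These bounds cover counting error only. Its edgeR adjusted p was 0.051, just outside the threshold of 0.05. The gene passed in 3 of the other settings, with adjusted p = 0.0179 without the count filter, 2.03e-06 with DESeq2 and 0.043 with voom from limma. In edgeR it did not pass with a replicate block (adjusted p = 0.281), pan-neuronal scaling (0.0622), no scaling factors (0.0526), equal depth (0.0517) or RLE scaling (0.0503). With 1 library left out the edgeR adjusted p ran from 0.0626 to 0.18. Isolated zeros were common in the AAV-Cre libraries, with 199, 36 and 25 genes at 0 there against at least 100 counts in both others. Fewer genes had any count with AAV-Cre (14747, 16337 and 16988) than with AAV-GFP (20778, 21515 and 23902). The part of the isolated zeros and of this gap in the Pcsk1 value was not tested. In the hypothalamic libraries Pcsk1 had 0 counts in all 3 TOM positive libraries and 0, 44 and 0 in the TOM negative ones, and did not pass the filter on low counts. Without that filter its edgeR adjusted p was 0.211, and with DESeq2 0.2. The 44 counts came from TOM negative replicate 2 alone, and without it both groups were at 0.

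Pcsk2 (chromosome 2, 143388076 to 143658205, plus strand) encodes the convertase that follows with further cuts and predominates in neurons. Its counts were 274, 252 and 379 in TOM positive and 266, 192 and 206 in TOM negative libraries, or 11.8 ± 2.84 against 10.7 ± 2.32 CPM (SD, n = 3). The groups overlapped, and the log2 fold change was 0.13 ± 0.42 (SE), with a 95% interval from -0.85 to 1.12 (edgeR adjusted p = 0.853). In the PVH libraries the counts were 755, 330 and 367 with AAV-Cre, against 725, 404 and 324 with AAV-GFP, with replicate 1 the highest in both. The log2 fold change was 0.080 ± 0.41, with an interval from -0.87 to 1.03 (edgeR adjusted p = 0.95). Its sign turned to -0.76 and -0.33 when libraries were scaled to pan-neuronal genes. Of its exon bases, 4.54% are shared with the antisense genes Pcsk2os1 and Pcsk2os2, and reads there cannot be assigned without strand.

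Cpe (chromosome 8, 65045576 to 65146088, minus strand) encodes carboxypeptidase E, which removes the basic residues left by the convertases. It had 76029, 124640 and 111725 counts in TOM positive and 54881, 74019 and 67605 in TOM negative libraries. On the CPM scale this was 3955 ± 269 against 3148 ± 414, and all 3 TOM positive libraries lay above all TOM negative ones. The log2 fold change was 0.33 ± 0.14 (edgeR adjusted p = 0.139), and it turned to -0.55 ± 0.16 when libraries were scaled to the pan-neuronal genes (edgeR adjusted p = 0.0319). The direction of Cpe therefore differed between these scalings. Under pan-neuronal scaling the median over all genes tested was -0.91 in this comparison. Pan-neuronal scaling rests on summed counts of the 20 genes. Ncam1 averaged 640 CPM of a mean sum of 905 in TOM negative cells, and 694 of 1674 in TOM positive cells. The weight of Ncam1 in the values under this scaling was not tested. In PVH cells Cpe had 161523, 147538 and 110532 counts with AAV-Cre, against 232545, 129213 and 165901 with AAV-GFP. The groups overlapped at 9224 ± 1412 and 11021 ± 1446 CPM, and the fitted log2 difference was -0.26 ± 0.28 (edgeR adjusted p = 0.698).

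Pam (chromosome 1, 97722839 to 98023371, minus strand) encodes the enzyme that amidates peptides such as oxytocin and vasopressin. Its counts were 76, 0 and 73 in TOM positive and 38, 106 and 62 in TOM negative libraries, and 238, 293 and 0 after AAV-Cre against 248, 221 and 213 after AAV-GFP. In each comparison a single library at 0, TOM positive replicate 2 and AAV-Cre replicate 3, stood apart from its group. The log2 fold changes of -0.64 ± 1.52 and -0.34 ± 1.37 had 95% intervals from -4.21 to 2.92 and from -3.52 to 2.85 (edgeR adjusted p = 0.801 and 0.935). Without AAV-Cre replicate 3 the AAV value turned to 0.24 ± 0.47.

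Scg5 (chromosome 2, 113606707 to 113659466, minus strand) encodes the chaperone that the Pcsk2 product needs to mature. It had 1557, 3094 and 2479 counts in TOM positive and 1832, 1097 and 1219 in TOM negative libraries, or 89.3 ± 14.1 against 67.0 ± 21.8 CPM. TOM negative replicate 1 lay inside the range of the TOM positive libraries. With AAV-Cre its counts were 989, 1529 and 1710, against 2998, 1616 and 2120 with AAV-GFP, or 94.3 ± 29.1 against 140 ± 20.4 CPM. The AAV groups overlapped by a narrow margin, with the highest AAV-Cre library at 117.5 and the lowest AAV-GFP library at 117.1 CPM. The log2 fold changes were 0.41 ± 0.26 and -0.57 ± 0.31 (edgeR adjusted p = 0.31 and 0.38), and the first turned to -0.47 under pan-neuronal scaling.

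Pcsk1n (chromosome X, 7786061 to 7790649, plus strand) encodes proSAAS, a granin-like precursor whose peptides inhibit the Pcsk1 product. Its counts were 3183, 5638 and 4960 in TOM positive and 3185, 2596 and 2574 in TOM negative libraries, or 173 ± 16.2 against 135 ± 22.5 CPM. The TOM groups did not overlap in CPM, though TOM positive replicate 1 at 163 and TOM negative replicate 1 at 160 lay close. The log2 fold change was 0.37 ± 0.18 (edgeR adjusted p = 0.182), and -0.51 under pan-neuronal scaling. With AAV-GFP its counts were 6007, 17607 and 12710, the widest ratio of highest to lowest CPM (4.11) of any member in that group, against 6532, 5290 and 6328 with AAV-Cre. The groups overlapped through AAV-GFP replicate 1, and the log2 fold change was -1.05 ± 0.48, with a 95% interval from -2.16 to 0.063 (edgeR adjusted p = 0.292). Its exons share 6.16% of their bases with Eras on the other strand, and Eras had 0 counts in every library.

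**Figure D2:**
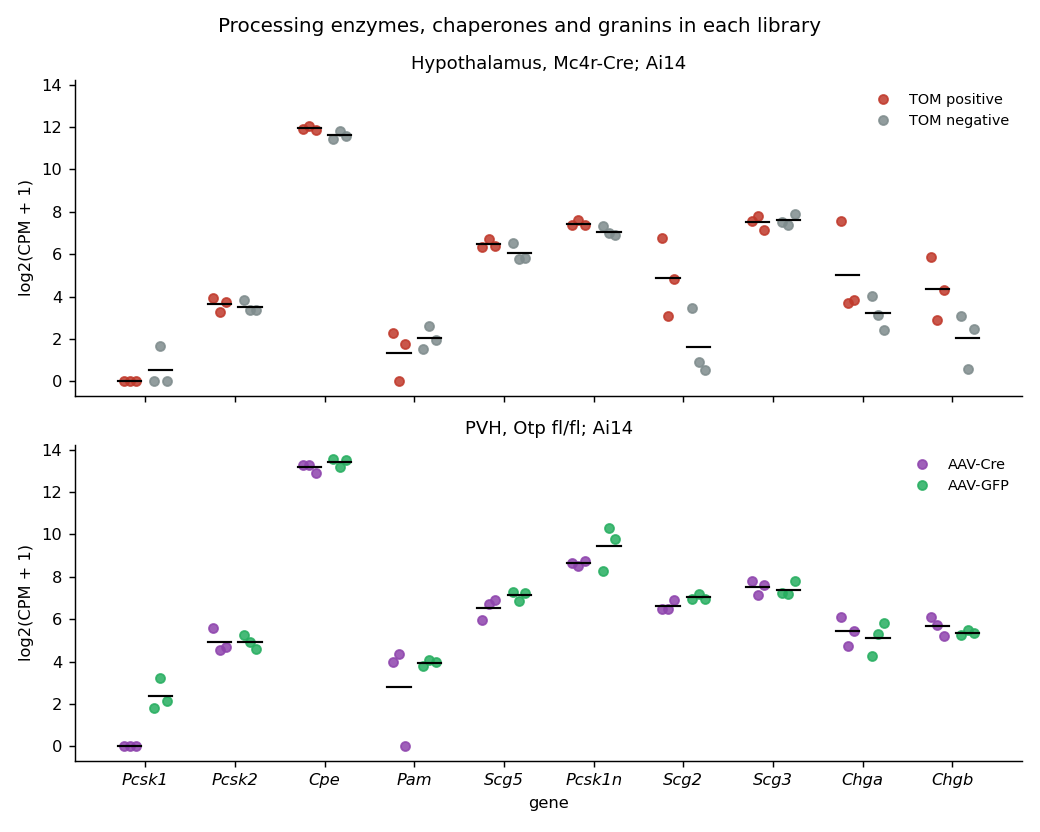
Points are single libraries on a log2(CPM + 1) axis and black lines are group means, with hypothalamic libraries above and PVH libraries below. Pcsk1 is at 0 in all 3 AAV-Cre libraries, and Scg2, Chga and Chgb spread more widely than Cpe, Scg5, Pcsk1n and Scg3 in the TOM positive libraries.

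In the plot of every library, Scg2, Chga and Chgb varied by 96.6% to 142% of their mean CPM (coefficient of variation) within the TOM positive group, against 23.0% for Scg3 and 93.4% for Pam. Scg2 (chromosome 1, 79412386 to 79417837, minus strand) encodes secretogranin II, the precursor of secretoneurin. It had 2082, 218 and 812 counts in TOM positive and 197, 18 and 10 in TOM negative libraries. Those are 107, 7.43 and 27.01 CPM against 9.91, 0.871 and 0.458 CPM, so TOM negative replicate 1 stood above TOM positive replicate 2. The log2 fold change was 3.65 ± 1.38 (edgeR adjusted p = 0.101). It was 2.20 without TOM positive replicate 1 (adjusted p = 0.309) and 6.13 without TOM negative replicate 1, where it passed (adjusted p = 0.041). It also passed with DESeq2 (3.63, adjusted p = 0.0057).

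Chga (chromosome 12, 102521228 to 102531287, plus strand) encodes chromogranin A, a granin of endocrine cells and many neurons. It had 3626, 349 and 398 counts in TOM positive and 305, 162 and 97 in TOM negative libraries. TOM positive replicate 1 at 186 CPM stood far above the other TOM positive libraries at 11.9 and 13.2 CPM, and TOM negative replicate 1 at 15.3 CPM lay above those 2. The log2 fold change of 2.93 ± 1.14 (edgeR adjusted p = 0.108) was 0.45 ± 0.62 without that library (adjusted p = 0.677).

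Chgb (chromosome 2, 132623198 to 132636999, plus strand) encodes chromogranin B, which is found with chromogranin A in dense cores. Its counts were 1123, 191 and 564 against 149, 10 and 99, or 27.6 ± 26.7 against 4.17 ± 3.52 CPM. The groups overlapped, since TOM negative replicate 1 at 7.495 CPM exceeded TOM positive replicate 2 at 6.51 CPM. The log2 fold change was 2.73 ± 1.08 (edgeR adjusted p = 0.115), and 1.60 without TOM positive replicate 1 (adjusted p = 0.36).

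Scg3 (chromosome 9, 75550471 to 75591338, minus strand) encodes secretogranin III, which tethers granin aggregates to the vesicle membrane. Unlike the other granins in value, it had 3702, 6614 and 4223 counts in TOM positive and 3589, 3441 and 5216 in TOM negative libraries, or 185 ± 42.6 against 195 ± 38.5 CPM. The groups overlapped, and the log2 fold change was -0.077 ± 0.23, with a 95% interval from -0.61 to 0.45 (edgeR adjusted p = 0.842). Its sign depended on the scaling, at 0.18 without scaling factors and -0.98 ± 0.26 under pan-neuronal scaling (edgeR adjusted p = 0.0221). Per length, Scg2 stood at 0.61, 0.036 and 0.21 of Scg3 in the TOM positive libraries, which shows how far the balance of these granins varied within a group. The mean ratio was 0.29 ± 0.30 in TOM positive, 0.023 ± 0.032 in TOM negative, 0.60 ± 0.14 in AAV-Cre and 0.88 ± 0.25 in AAV-GFP cells.

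Pituitary endocrine cells are rich in granins, and of their markers only Cga had its highest count in TOM positive replicate 1. Cga, the shared subunit of the glycoprotein hormones, had 857, 0 and 0 counts in TOM positive libraries, while Tshb, the thyrotropin subunit, had 97, 176 and 132, and both were at 0 in TOM negative libraries. The 9 pituitary markers summed to between 5.66 and 50.4 CPM in TOM positive and between 2.81 and 3.27 CPM in TOM negative libraries. Of these, 2 could be tested and 1, Tshb, passed as higher. The other, Pomc, had 29, 44 and 36 counts in TOM positive against 65, 43 and 54 in TOM negative libraries. Its log2 fold change was -0.90 (edgeR adjusted p = 0.427). Gh, Prl, Lhb, Fshb and Tbx19 were at 0 in every TOM positive library, and Lhb had 0, 15 and 15 counts in TOM negative ones. Pmch, the precursor of melanin-concentrating hormone in lateral hypothalamic neurons, had 1184, 35 and 92 counts in the red sort and 26, 29 and 46 in TOM negative libraries. The part of pituitary cells or of single neuron types in the granin values was not tested.

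**Figure D3:**
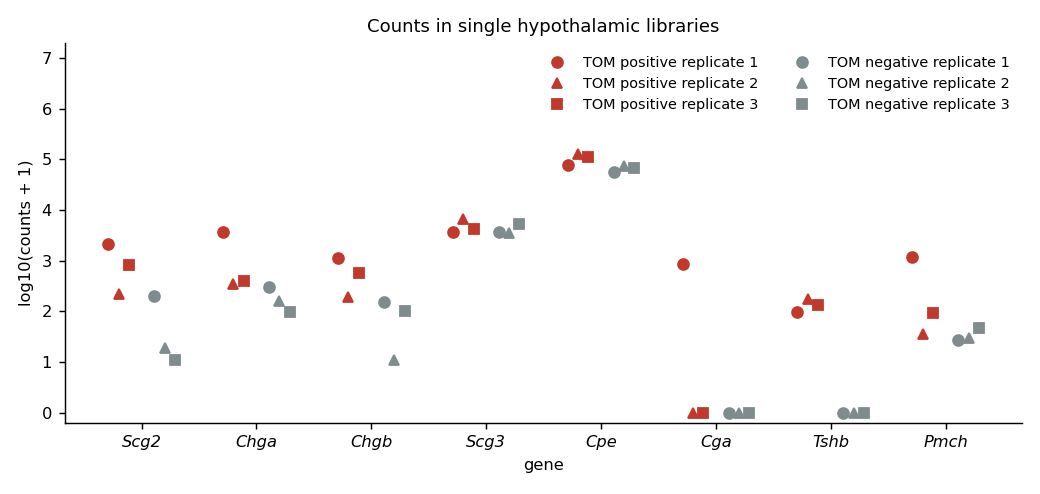
Each symbol is 1 hypothalamic library, on a log10(counts + 1) axis, for 5 members and for Cga, Tshb and Pmch. TOM positive replicate 1 (red circles) is the highest library for Scg2, Chga, Chgb, Cga and Pmch but not for Scg3, Cpe or Tshb.

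In the PVH cells Scg2, Chga and Chgb spread less, with a ratio of highest to lowest CPM within a group between 1.18 and 3.05, against 3.45 to 21.6 in the hypothalamic groups. Scg2 had 1422, 1320 and 1761 counts with AAV-Cre, against 2402, 2012 and 1752 with AAV-GFP, or 99.7 ± 18.4 against 131 ± 12.7 CPM. The groups did not overlap in CPM, with 121 the highest AAV-Cre and 123 the lowest AAV-GFP value, and the log2 fold change was -0.39 ± 0.26 (edgeR adjusted p = 0.469). Chga had 1080, 380 and 615 counts against 348, 539 and 780, and differed by 0.27 ± 0.51 on the log2 scale (edgeR adjusted p = 0.834). Chgb had 1091, 755 and 528 counts against 709, 598 and 566, and differed by 0.38 ± 0.32 (edgeR adjusted p = 0.59). Scg3 had 3579, 2075 and 2858 counts against 2862, 1974 and 3147, and differed by 0.13 ± 0.30 (edgeR adjusted p = 0.872). For Chga, Chgb and Scg3 the groups overlapped, and under pan-neuronal scaling their values turned to -0.050, -0.0049 and -0.17.

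In TOM positive against TOM negative cells 9 members passed the filter on low counts, all but Pcsk1, and none of the 9 passed the edgeR test, where 23.9% of 15228 genes tested did (10.4% as higher and 13.4% as lower). At an unadjusted p under 0.05 stood 3 members, Scg2, Chga and Chgb, against 36.4% of all genes. DESeq2 called 2, Scg2 and Chgb, where it called 30.9% of 17677 genes, and voom called 0, where it called 33.3% of 15228. Pan-neuronal scaling gave 2, Cpe and Scg3, both lower, where 35.8% of all genes passed. The groups did not overlap, with TOM positive higher, for Cpe and Pcsk1n, against 20.8% of all genes in that direction (46.4% in either direction). The median log2 fold change of the 9 was 0.37, beside -0.024 over all genes tested, and 7 of the 9 were positive. Among all genes 1589 passed as higher and 2046 as lower, a split that became 2204 and 1532 without scaling factors and 424 and 5034 under pan-neuronal scaling. Without scaling factors the all-gene median moved from -0.024 to 0.24, and under pan-neuronal scaling to -0.91.

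After AAV-Cre against AAV-GFP all 10 members passed the filter and none passed the edgeR test, where 2.6% of 15408 genes did (0.63% as higher and 1.97% as lower). At an unadjusted p under 0.05 stood 1 member, Pcsk1, against 18.8% of all genes, and DESeq2, voom and edgeR without the count filter each called that gene alone among the members. Those fits called 9.95% of 18922, 3.15% of 15408 and 2.62% of 27166 genes. The groups did not overlap, with AAV-Cre lower, for Pcsk1 and Scg2, against 18.6% of all genes in that direction, and for no member with AAV-Cre higher, against 9.85%. The median log2 fold change of the 10 was -0.30, beside -0.16 over all genes, and 4 of the 10 were positive. That order did not hold in 3 other fits, where the members' median was above that of all genes: -0.030 against -0.25 without AAV-Cre replicate 3, -0.32 against -0.61 without the count filter and -0.24 against -0.54 with DESeq2. Without AAV-Cre replicate 1, 1 of the 10 was positive. Among all genes 97 passed as higher and 303 as lower, which became 127 and 241 without scaling factors and 12 and 207 under pan-neuronal scaling. Without scaling factors the all-gene median moved from -0.16 to -0.0018, and under pan-neuronal scaling to -0.50.

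**Figure D4:**
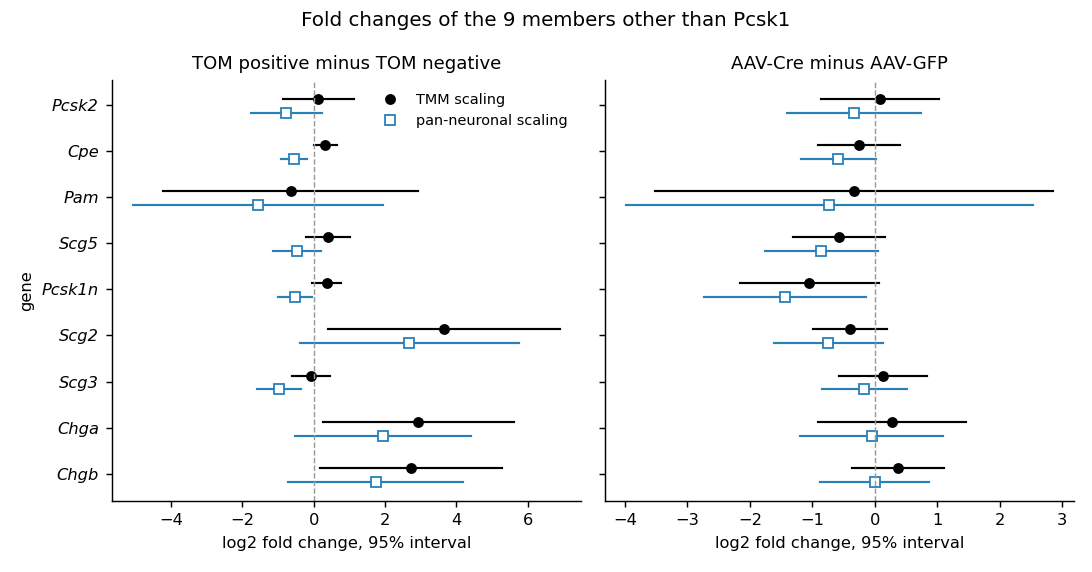
Log2 fold changes (horizontal axis) with 95% intervals for the 9 members other than Pcsk1, in the TOM comparison on the left and the AAV comparison on the right; filled circles use TMM scaling and open squares scaling to 20 pan-neuronal genes. Under pan-neuronal scaling the TOM intervals of Cpe, Scg3 and Pcsk1n lie below 0.

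The plot of fold changes sets the members under both scalings side by side. Of the 20 pan-neuronal genes, 9 passed as higher in TOM positive cells and 0 as lower, with a median log2 fold change of 2.33. The members' mean log2 CPM minus that of the pan-neuronal genes was 0.41, -0.28 and -0.17 in TOM positive libraries and 1.82, 1.09 and 1.25 in TOM negative ones. All 3 TOM positive libraries lay below all TOM negative ones on this measure, for which no test was made. The difference of -1.40 was -0.22 when the summed CPM of the pan-neuronal genes took the place of their mean log2 CPM. In TOM negative cells Ncam1, with a log2 fold change of 0.12, held 640 CPM of a mean sum of 905. In PVH cells it was -0.45, -0.71 and -1.05 with AAV-Cre, against 0.19, 0.46 and -0.11 with AAV-GFP, again without overlap, while 0 of the 20 pan-neuronal genes passed with edgeR, 2 stood at an unadjusted p under 0.05 and their median was 0.21. Without Pcsk1 and Pam, which are at 0 in some libraries, the difference between AAV groups moved from -0.92 to -0.24, and that between TOM groups to -0.82. The 10 members together took 0.499 ± 0.0415% of counts in TOM positive, 0.326 ± 0.0346% in TOM negative, 1.07 ± 0.129% in AAV-Cre and 1.17 ± 0.116% in AAV-GFP libraries. Cpe made up most of this, since the other 9 took 0.0664, 0.0391, 0.0973 and 0.131% in the same order.

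**Figure D5:**
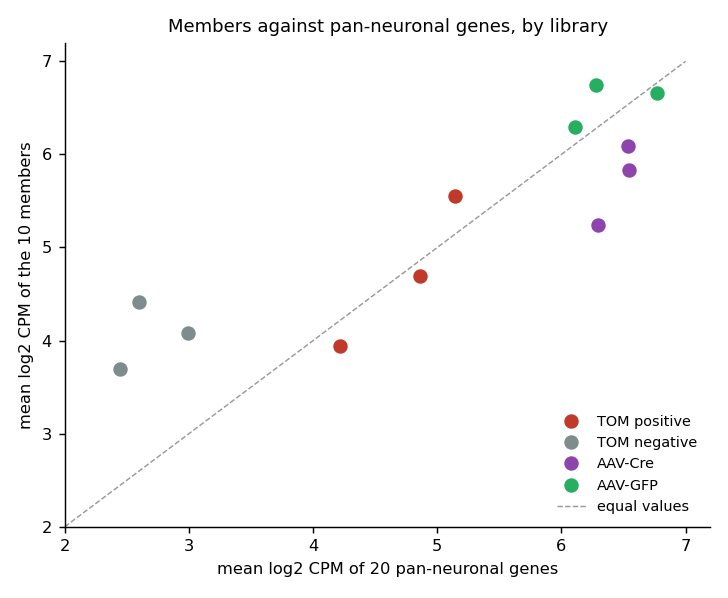
Each point is 1 library; the horizontal axis is the mean log2 CPM of 20 pan-neuronal genes, the vertical axis that of the 10 members, and the dashed line marks equal values. TOM negative libraries lie 1.09 to 1.82 above the line, and AAV-Cre libraries 0.45 to 1.05 below it.

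Among 19 other processing enzymes, 15 could be tested in the hypothalamic cells, where 1 rose and 4 fell, with a median of -0.66. Of all genes tested, 10.4% passed as higher and 13.4% as lower. Cpm, a membrane carboxypeptidase, was the one that rose, by 2.13 ± 0.41 on the log2 scale (edgeR adjusted p = 0.011). The lysosomal proteases Ctsb and Ctsl fell by 1.40 and 1.39 and the lysosomal carboxypeptidase Prcp fell by 1.74 (edgeR adjusted p = 0.000668, 0.00106 and 0.0319), and the ubiquitous convertase Furin fell by 2.15 (edgeR adjusted p = 0.0407). With 1 library left out, Cpm, Ctsb and Ctsl passed in all 6 fits, Furin in 2, where TOM positive replicate 2 or else TOM negative replicate 1 was dropped, and Prcp in 1, where TOM positive replicate 2 was dropped (adjusted p up to 0.141 and 0.112). The 13 microglia markers, which summed to between 502 and 1150 CPM in TOM positive and between 28303 and 34004 CPM in TOM negative libraries, moved with these proteases, and their part was not tested. In PVH cells 17 could be tested, 1 rose and 0 fell, and it was again Cpm, higher by 2.12 ± 0.36 after AAV-Cre (edgeR adjusted p = 0.0338). That call ended when AAV-Cre replicate 2 or any AAV-GFP library was dropped, and held in the other 2 such fits (adjusted p up to 0.153). The 12 oligodendrocyte markers moved with Cpm in both comparisons, summing to between 49579 and 63394 CPM with AAV-Cre and between 14906 and 54177 CPM with AAV-GFP, and their part was not tested.

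Of 24 genes of dense-core vesicle machinery, 23 could be tested in the hypothalamic cells, where 8 rose and 0 fell, with a median of 1.21. Over all genes tested there, 10.4% passed as higher and 13.4% as lower. The 4 with the smallest p were Sytl4, which helps to dock granules, the synaptotagmins Syt11 and Syt4, and Rab2a, which acts in vesicle formation. Syt4 rose by 4.17 ± 0.58, with 530, 594 and 344 counts in TOM positive against 27, 24 and 16 in TOM negative libraries (edgeR adjusted p = 0.00311). Sytl4, Syt11 and Syt4 kept their calls whichever library was dropped, and Rab2a in 5 of 6 such fits, with adjusted p = 0.0546 without TOM negative replicate 2. Ptprn and Sez6l2 passed in 0 of the 6, Vgf in 2 and Rab3a in 3. In PVH cells all 24 could be tested, and Sez6l2 alone passed, higher by 1.52 ± 0.26 after AAV-Cre (edgeR adjusted p = 0.0338), with a median of -0.10 over the list. Dropping any single library ended this call too (adjusted p from 0.0657 to 0.135).

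Of 24 peptide precursors, the substrates of this pathway, 14 could be tested in the hypothalamic cells. There 2, Tac1 and Cck, rose, against 10.4% of all genes, and the median was 1.05. Cck, the cholecystokinin precursor, had 520, 47 and 45 counts in TOM positive against 3, 1 and 0 in TOM negative libraries, so that TOM positive replicate 1 was again the highest (edgeR adjusted p = 0.0264). With 1 library left out Tac1 passed in all 6 fits and Cck in 2, those without TOM positive replicate 2 or 3. In PVH cells 19 could be tested and 18 had values below 0 after AAV-Cre, with a median of -1.49, beside -0.16 over all genes. Sst alone passed, with 183, 143 and 174 counts after AAV-Cre against 603, 618 and 683 after AAV-GFP. Dropping any single library ended that call (edgeR adjusted p from 0.065 to 0.18). Markers of other cell types moved in the same libraries. The 9 tanycyte and ependymal markers summed to between 50.2 and 62.9 CPM with AAV-Cre and between 900 and 1567 CPM with AAV-GFP, 4 of 9 tested passed as lower, and Rax was at 0 in every AAV-Cre library. The 10 endothelial markers summed to between 26.0 and 37.9 against between 277 and 503 CPM, with 1 of 9 tested passing as lower and Cdh5 and Emcn at 0 with AAV-Cre. The 8 blood markers summed to between 0.312 and 42.7 against between 708 and 4693 CPM, with 2 of 5 tested passing as lower and Alas2, Slc4a1 and S100a9 at 0 with AAV-Cre. The 10 mural and fibroblast markers summed to between 19.1 and 46.4 against between 93.8 and 141 CPM, with 1 of 8 tested passing as lower and Acta2 at 0 with AAV-Cre. Oligodendrocyte markers had a median log2 fold change of 1.48, with 4 of 12 passing as higher, and microglia markers 0.96, with 1 of 13. Of the 9 pituitary markers 2 could be tested and 1, Lhb, passed as lower. Lhb had 719, 260 and 114 counts with AAV-GFP and 0 with AAV-Cre, whereas Cga had 2, 2 and 0 with AAV-GFP, Tshb had 0, 30 and 0 with AAV-Cre against 3, 0 and 2, and Gh, Prl, Fshb and Pou1f1 were at 0 in all AAV libraries. The part of these markers in the values of the members and precursors was not tested.

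The genes with profiles most like each member were ranked by the root mean square difference of log2(CPM + 1), centred within each table, over 12 libraries and 12285 genes. The nearest were Gprasp2 (0.17) and Clk3 (0.19) for Pcsk2, Rab7 and Pnrc2 (both 0.17) for Cpe, Arfip2 (0.17) and Commd8 (0.18) for Scg3, H2aj and Rexo2 (both 0.17) for Scg5, and Tle5 (0.21) and Smap1 (0.24) for Pcsk1n. This distance grows with a gene's own spread, so it cannot be compared between flat and variable members. About its table means, Cpe had a root mean square of 0.21 and Scg3 of 0.27. The members with wide spread were Scg2 (1.53), Chga (1.23), Chgb (1.17) and Pam (1.23). Their nearest were Arhgap20 (0.67) and Napb (0.68) for Scg2, Ttbk2 (0.57) and Ttc39aos1 (0.64) for Chga, Orc2 and Ttbk2 (both 0.54) for Chgb, and Kdr (0.62) and Rasd1 (0.63) for Pam. No member was among the 2 nearest genes of another. Chgb was the gene ranked 4 for Scg2, at 0.75, and Chga ranked 19, at 0.89, while Chgb ranked 31 for Chga, at 0.82. Cpe and Scg3 differed least of all pairs of members, at 0.35, but both varied little, and Scg3 ranked 926 for Cpe. The 12 libraries share sorts and tables, so these distances are a description.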

How the data were processed

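Reads of 12 libraries of sorted mouse cells were counted per gene by the authors. The deposited values were raw counts, not normalized, made with FastQC, Trim Galore, STAR and featureCounts, per the submitters' processing notes. Per the file headers of the single AAV files, featureCounts 2.0.1 counted without strand on GENCODE vM30. For the TOM table the counting settings were not given in the sources used. The notes name mm10, whereas vM30 belongs to a later assembly. Member coordinates are those of vM30 as the files give them, none was converted, and promoter windows are RefSeq's on GRCm38.p6. Per the labels' protocols, SMART-Seq libraries were made from RNA of sorted cells. No protocol mentions molecular identifiers, so PCR copies count as reads. Lower bounds cover counting error only, while 95% intervals of fold changes come from the fits and carry the spread among libraries.

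The fit of each comparison used its own 6 libraries and ran over all genes with edgeR 4.0.16 in R 4.3.3 (TMM, filterByExpr at a minimum count of 10, quasi-likelihood test, two-sided, Benjamini-Hochberg, threshold 0.05). DESeq2 1.42.0 and voom from limma 3.58.1 were alternatives, beside other scalings, no count filter, equal depth, a replicate block and each library left out. Scaling to pan-neuronal genes set library sizes from the summed counts of 20 marker genes, so genes with the most counts weighed most. Mean log2 CPM used a prior count of 2. No libraries of a group agreed within sampling noise. The 6 single AAV files matched the joint table.

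The members and gene lists were chosen with earlier results of these data known. Named were all members, up to 4 genes with the smallest p among those that passed in each list of enzymes, vesicle genes and precursors, the 2 genes nearest to each member with a mean of at least 5 CPM in some group, Mc4r, Otp and cell-type markers. Furin, Ptprn, Sez6l2, Vgf and Rab3a in the TOM comparison, and Pmch, Avp, Cga, Tshb, Lhb, Pomc and Ncam1, were named after their values were seen.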

Additional observations from a re-analysis of the deposited data

How the results depend on the processing

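In the hypothalamic comparison, 2 members passed without scaling factors (Cpe and Pcsk1n), 2 with a replicate block and 2 with DESeq2 (Scg2 and Chgb both times), and 2 under pan-neuronal scaling (Cpe and Scg3, both lower). With 1 library left out 0 to 1 passed, the 1 being Scg2 without TOM negative replicate 1. The labels do not say whether the replicate numbers pair the samples. Same-numbered libraries had deviation correlations from -0.031 to 0.025 (TOM) and from -0.07 to -0.065 (AAV). Different-numbered ones ran from -0.041 to 0.053 and from -0.008 to 0.085. With 3 libraries in a group these values cannot settle the pairing. Genes that passed in all numbered 1987 with the replicate block, 5468 with DESeq2, 5458 under pan-neuronal scaling and 1511 to 3547 with 1 library left out, the lowest without TOM negative replicate 2. DESeq2 gave no p for Chga. The median member value became -0.51 under pan-neuronal scaling, where the median over all genes was -0.91. The difference in the members' share of counts was 0.173 percentage points, and 0.0273 without Cpe. The difference from pan-neuronal genes of -1.40 became -0.22 with their summed CPM and -0.82 without Pcsk1 and Pam. Under pan-neuronal scaling the sign turned for Pcsk2 (-0.76), Cpe (-0.55), Scg5 (-0.47) and Pcsk1n (-0.51), and without scaling factors for Scg3 (0.18). With 1 library left out Pcsk2 ran from -0.016 to 0.32 and Scg3 from -0.25 to 0.084, where its values above 0 were 0.084 and 0.072.

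In the AAV comparison 1 member, Pcsk1, passed without the count filter, 1 with DESeq2 and 1 with voom, and 0 with any library left out. Genes that passed in all numbered 712 without the filter, 0 with the replicate block in edgeR (2013 at an unadjusted p under 0.05), 1883 with DESeq2, 219 under pan-neuronal scaling and 0 to 296 with 1 library left out. The counts were 0 without AAV-GFP replicate 1 or 3 (2609 and 2342 at an unadjusted p under 0.05), 2 without AAV-GFP replicate 2 and 122 without AAV-Cre replicate 2. The median member value became -0.66 under pan-neuronal scaling, where the median over all genes was -0.50. The difference from pan-neuronal genes became -0.24 without Pcsk1 and Pam. Signs turned under pan-neuronal scaling for Pcsk2 (-0.33), Scg3 (-0.17), Chga (-0.050) and Chgb (-0.0049), and with voom for Pcsk2 (-0.084). With 1 library left out Pcsk2 ran from -0.33 to 0.35, Pam from -0.98 to 0.24, Scg3 from -0.025 to 0.44 and Chga from -0.14 to 0.75. The cause of these changes was not tested. Removing Pcsk1 and Pam, and removing Cpe, were chosen after seeing the data. At equal depth no member changed its call or its sign.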
